A study of Homo sapiens with 60 samples.

Results

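The comparison described is that of SH-SY5Y cells after 1 day of exposure to 10 µM lead (Pb) with cells of the same day without Pb. It rests on 6 of the 60 libraries of the series, 3 dishes at 10 µM and 3 at 0 µM, all collected at day 6 of differentiation and chosen by the day, dose and replicate number in their titles. SH-SY5Y is a human neuroblastoma line of noradrenergic character that can be driven towards a neuron-like state. All cells were wild type at passage 39 and were grown in 15 cm dishes with 1 dish for each replicate. Pb was given from day 5 onward at 0, 0.16, 1.26 or 10 µM, and RNA was sequenced at days 6, 9, 12, 15 and 18 of an 18 day protocol, with 3 libraries in each of 20 groups. The 0.16 and 1.26 µM dishes of day 6, and the 10 and 0 µM dishes of the 4 later days, serve here only for comparison.

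Pb is a divalent metal that binds thiol groups and can take the place of calcium and zinc in proteins. Cells meet such stress with several programmes. The transcription factor NRF2 raises genes that detoxify reactive compounds, metallothioneins bind metal ions, and the unfolded protein response raises the chaperones and folding enzymes of the endoplasmic reticulum (ER). In that response the sensors ATF6, IRE1 and PERK report misfolded protein in the ER lumen, and ATF6 and XBP1 act on a promoter element known as the ER stress response element (ERSE).

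The depth of the 6 libraries was 20841741 to 33972019 reads assigned to genes, at which 3 reads correspond to 0.0883 to 0.144 CPM (a gene's reads scaled to the same total in every library). Replicate 3 of 10 µM stood apart from the other libraries of its group. Relative to the mean of its day, its log2 values fell by 0.490 for each 10-fold increase in transcript length, whereas the slopes of the other 2 libraries of 10 µM were 0.128 and 0.0209 and those of the 0 µM libraries lay between 0.0376 and 0.131. Calls at day 6 are therefore given with and without this library. Of 18 noradrenergic markers 16 were at 1 CPM or more in all 6 libraries, and TH and SLC18A2 were below 1 CPM in at least 1. The noradrenergic markers summed to 8585 to 8724 CPM at 0 µM and 7881 to 9216 CPM at 10 µM. The sum over 12 markers of mesenchymal or substrate-adherent neuroblastoma cells was 261 to 266 CPM and 208 to 259 CPM, with COL1A2 and PRRX1 at 0 in all 6. Schwann and glial markers summed to at most 6.46 CPM, epithelial markers to 23.2 to 27.0 CPM at 0 µM and 26.8 to 30.6 CPM at 10 µM with KRT1 and CDH1 at 0, and 5 of 6 blood markers and both liver markers were at 0. Mitochondrial transcripts took 1.09 to 1.31% of reads at 0 µM and 1.22 to 1.36% at 10 µM.

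After 1 day at 10 µM, genes of ER chaperones, the NRF2 target NQO1 and the metallothionein MT1F were higher, and transcripts of the imprinted genes H19, IGF2, DLK1 and RTL1 and of the proteoglycan SPOCK1 were lower. In limma's test on log2(CPM + 1), fitted with 1 mean per group to all 60 libraries and adjusted by the Benjamini-Hochberg method over all genes, 100 of 15263 genes passed an adjusted p of 0.05 (0.655%). Of these, 45 were higher (0.295%) and 55 lower (0.36%) at 10 µM. The p-values measure the spread between dishes of 1 passage, pooled over the groups of all days and doses and not taken from the day 6 dishes alone. The differences were small: log2 values ran from -1.40 to 0.89, and 78 of the 100 genes differed by less than 1.5-fold. In 92 of the 100 the 3 libraries of one group did not overlap those of the other, which held for 13.1% of all genes. The largest rises and falls named below were required not to overlap, so in those genes it is no further support. Without replicate 3 of 10 µM, 20 genes passed (0.131%), 11 higher and 9 lower, all of them among the 100 and in the same direction. The 11 higher were NQO1, MT1F, HTR2B, UCHL1 and the ER genes HSPA5, HSP90B1, CALR, PDIA3, DNAJB11, DNAJC3 and MANF. The 9 lower were RTL1, IGF2, DLK1, H19, SPOCK1, EPAS1, DRD5, VIM and DBH.

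The count depended on which libraries entered the fit. Fitted to the 6 libraries alone, 1 gene passed, H19, with 924 of 15263 at an unadjusted p under 0.05. All 20 genes named above were among the latter. They had been chosen from the same 6 libraries, so this is no separate support for them. The count was 31 without replicate 1 and 48 without replicate 2 of 0 µM, and 1061 without replicate 1 and 389 without replicate 2 of 10 µM, which leaves replicate 3 as 1 of 2 Pb libraries. Of the 20 genes, 19 passed in every one of the 13 alternatives that kept libraries of other days in the fit, and DNAJC3 lost its call in 1, without replicate 1 of 0 µM. The 13 include the fit without replicate 3 of 10 µM, by which the 20 were chosen, so passing there was fixed in advance. The highest adjusted p of the 20 in those alternatives was 0.153, and it was 0.769 in the fit of the 6 libraries alone and 0.557 in a fit of the 12 libraries of day 6.

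The promoters of 3 of the higher ER genes and of XBP1 are shown because each holds a full ERSE. The stretches are the 250 bases before the RefSeq start on the strand of the gene, in the build GRCh38.p14: HSPA5 at chr9:125241344-125241593 (minus strand), HSP90B1 at chr12:103930160-103930409 (plus), CALR at chr19:12938359-12938608 (plus) and XBP1 at chr22:28800570-28800819 (minus). Capitals mark the ERSE, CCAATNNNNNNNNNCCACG on either strand. In CALR the second capital stretch, nearer the start, matches TGACNNNGC, the core of the antioxidant response element (ARE).
HSPA5: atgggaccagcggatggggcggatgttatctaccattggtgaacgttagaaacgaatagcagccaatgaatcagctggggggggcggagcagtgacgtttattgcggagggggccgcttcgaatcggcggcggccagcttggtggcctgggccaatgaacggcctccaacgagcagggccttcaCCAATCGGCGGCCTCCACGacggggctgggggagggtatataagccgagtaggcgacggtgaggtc
HSP90B1: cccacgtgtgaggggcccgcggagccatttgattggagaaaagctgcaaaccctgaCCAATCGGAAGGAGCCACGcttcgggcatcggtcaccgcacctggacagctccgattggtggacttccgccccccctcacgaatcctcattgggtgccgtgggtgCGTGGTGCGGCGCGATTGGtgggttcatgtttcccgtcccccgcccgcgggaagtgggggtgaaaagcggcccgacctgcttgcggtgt
CALR: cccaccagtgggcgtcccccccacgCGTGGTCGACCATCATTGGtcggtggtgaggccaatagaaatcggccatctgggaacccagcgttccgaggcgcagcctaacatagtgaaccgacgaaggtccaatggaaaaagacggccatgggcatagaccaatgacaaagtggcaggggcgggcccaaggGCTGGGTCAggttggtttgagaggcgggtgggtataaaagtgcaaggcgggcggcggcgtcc
XBP1: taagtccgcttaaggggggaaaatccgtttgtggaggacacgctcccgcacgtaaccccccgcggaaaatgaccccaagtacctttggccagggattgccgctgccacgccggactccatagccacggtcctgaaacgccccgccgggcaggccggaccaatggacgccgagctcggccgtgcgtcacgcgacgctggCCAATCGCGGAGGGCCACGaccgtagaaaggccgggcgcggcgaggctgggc
The first base of the element lay 66 bases before the start in HSPA5, 194 in HSP90B1, which holds 2 copies, 225 in CALR and 52 in XBP1. Another RefSeq promoter of XBP1, at chr22:28800078-28800327 (minus), does not hold the element. The element was present in 26 of 35116 RefSeq promoters of this length (0.074%). It was found in 7 of the 22 measured ER chaperone genes that have a promoter in the table, and in 3 of the 7 that were higher at day 6. PDIA4, DNAJB11, DNAJC3 and MANF do not hold these letters in the window. Within the same 250 bases, the ARE core was found in 10.9% of all promoters and in none of the 3 higher NRF2 targets matched, NQO1, TXN and PIR. The metal response element TGCACNC or TGCGCNC was found there in 24.8% of all promoters. Bases further upstream were not searched, so an element outside the window would be missed. Of the higher genes of these lists, MT1F, PDIA3 and PRDX1 were not matched to a promoter.

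Of 23 ER chaperones and folding enzymes 8 were higher at 10 µM and none was lower, against 0.295% of all genes that were higher. Without replicate 3, 7 passed, against 0.0721% of all genes. The median log2 difference of the list was 0.22, and 0.19 without that library, beside -0.01 and 0.01 over all genes tested. HSPA5 (BiP), the Hsp70 of the ER lumen, was at 312, 304 and 300 CPM in the 0 µM dishes and at 398, 381 and 401 CPM in the 10 µM dishes. All 3 Pb dishes lay well above the controls, and replicate 3 did not stand apart. Its log2 difference was 0.36 ± 0.047 (SE; limma, adjusted p = 1.87e-06), and 0.35 ± 0.052 without replicate 3 (adjusted p = 0.000147). CALR, a calcium-binding lectin chaperone, was at 687, 700 and 671 CPM without Pb and at 820, 885 and 991 CPM with it. The highest value was that of replicate 3, and the difference of 0.38 ± 0.048 became 0.31 ± 0.049 without it (limma, adjusted p = 1.87e-06 and 0.000265).

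HSP90B1 (GRP94), the Hsp90 of the ER, went from 385, 386 and 397 CPM to 507, 450 and 520 CPM, a log2 difference of 0.34 ± 0.047. MANF, a secreted ER protein with neurotrophic activity, went from 69.8, 73.7 and 77.8 CPM to 92.4, 93.1 and 109 CPM, with the largest difference of the list (0.41 ± 0.064). The groups did not overlap in either gene, and both passed with all libraries (limma, adjusted p = 1.69e-05 and 0.000142) and without replicate 3 (0.00164 and 0.013). The HSPA5 co-chaperones DNAJB11 and DNAJC3 had log2 differences of 0.31 ± 0.055 and 0.33 ± 0.070 (limma, adjusted p = 0.00102 and 0.0115), and the disulfide isomerase PDIA3, which works with calreticulin, one of 0.24 ± 0.040 (adjusted p = 0.000334). These 3 also passed without replicate 3, at 0.0462, 0.0205 and 0.0215. PDIA4, another disulfide isomerase, passed with all libraries (0.22 ± 0.046, limma, adjusted p = 0.00948) and not without replicate 3 (0.17, adjusted p = 0.284). The 15 members that did not pass included HYOU1, an ER chaperone related to Hsp70, with a log2 difference of -0.26, and -0.09 without replicate 3. They also included the lectin chaperone CANX (-0.14) and the isomerase P4HB (-0.02). CANX was at 0.20 without replicate 3, so its sign rested on that library. PDIA3, PDIA4, HYOU1, CANX and P4HB are named after their values were seen, as are ATF6, EIF2AK3, OSGIN1 and GATA3 in what follows.

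Among 19 genes of ER stress sensors and ER-associated degradation, 1 was higher. XBP1, the transcription factor whose mRNA is spliced by IRE1, was at 139, 140 and 129 CPM without Pb and at 162, 166 and 177 CPM with Pb. The groups did not overlap, and the log2 difference of 0.30 ± 0.057 (limma, adjusted p = 0.00275) was 0.27 ± 0.063 without replicate 3, where it no longer passed (adjusted p = 0.0791). It also did not pass with the correction for GC content and length (0.23, adjusted p = 0.0631). The spliced form was not measured in this table of whole genes. The sensor genes did not pass: ATF6 had a log2 difference of 0.10, ERN1, which encodes IRE1, one of -0.28 and EIF2AK3, which encodes PERK, one of -0.24. Without replicate 3 these were 0.11, -0.15 and 0.14. In the branch downstream of PERK, none of 24 genes of the ATF4 and amino acid response passed, and the median was -0.11. DDIT3 (CHOP), the proapoptotic factor of ER stress, was at 16.8, 17.7 and 18.8 CPM at 0 µM and at 21.4, 22.4 and 27.3 CPM at 10 µM. Its groups did not overlap, with a log2 difference of 0.39 ± 0.10 that missed the threshold (limma, adjusted p = 0.0527, and 0.499 without replicate 3). None of 20 cytosolic heat shock genes passed, and HSPA1A, the inducible cytosolic Hsp70, was at 10.0 ± 1.07 CPM at 0 µM and 8.18 ± 1.09 CPM at 10 µM (SD, n = 3).

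**Figure D1:**
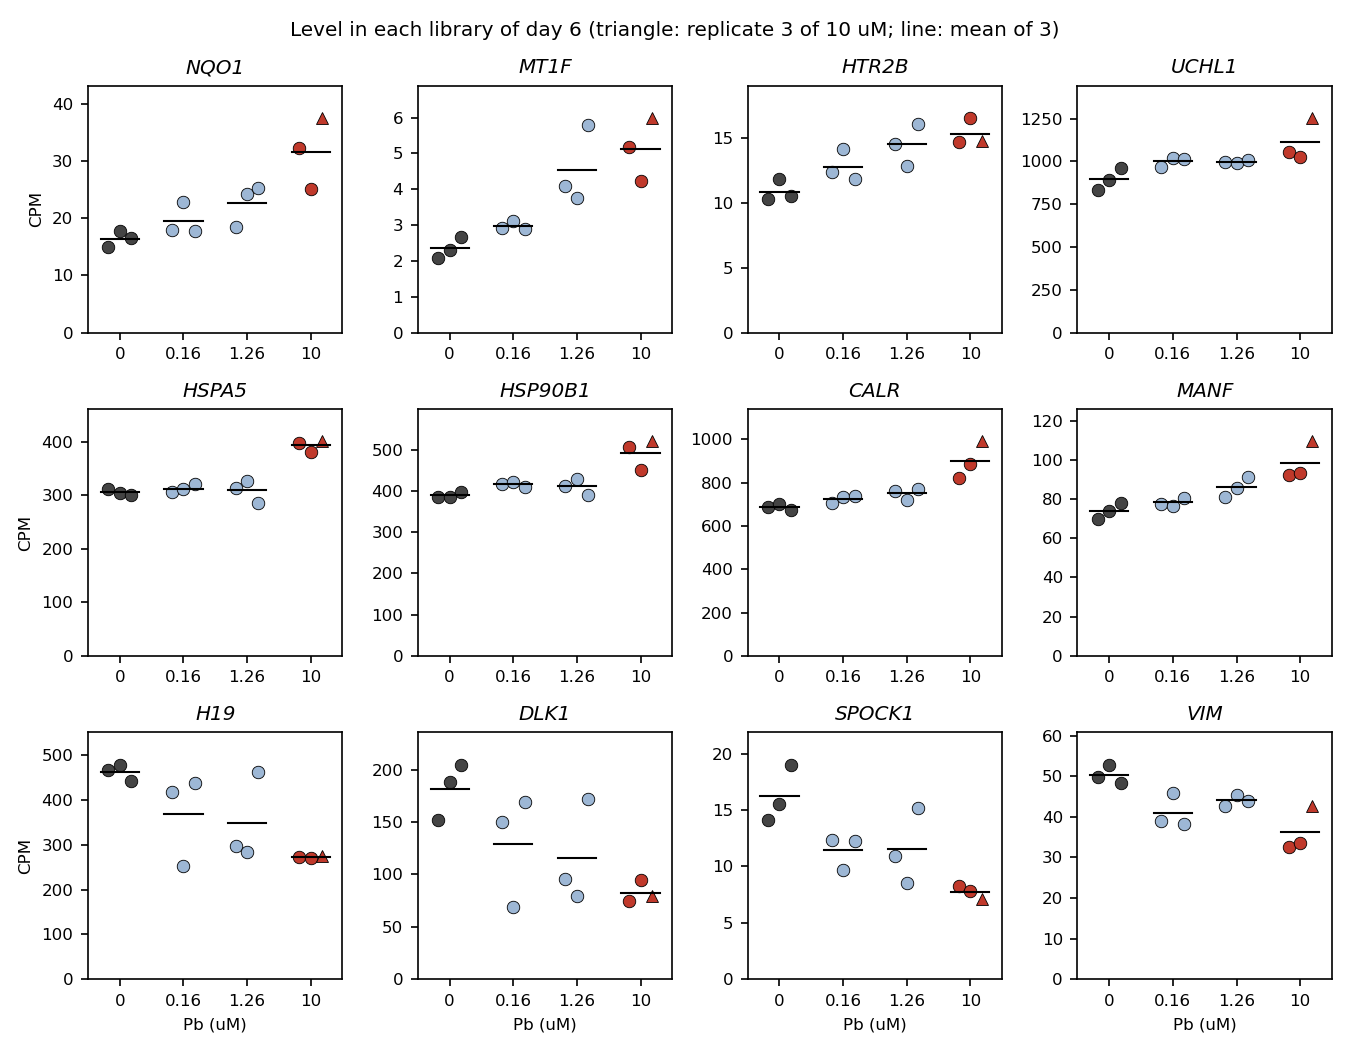
Level of 12 genes in each library of day 6 in CPM (y axis, from 0) at 4 doses of Pb (x axis), with 1 point per library, a triangle for replicate 3 of 10 µM and a line for the mean of 3. HSPA5 lies between 381 and 401 CPM at 10 µM and at 327 CPM or less in every other library, whereas H19 and DLK1 spread widely at 0.16 and 1.26 µM.

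Of 35 measured NRF2 targets 4 were higher and none lower (0.295% of all genes were higher), and 1 was higher without replicate 3. The list leaned upward: 32 of 35 members were above 0, with a median of 0.15, and 0.14 without replicate 3. NQO1, a quinone reductase and a standard reporter of NRF2 activity (chr16:69709401-69726560 in GRCh38.p14), was at 14.9, 17.7 and 16.4 CPM without Pb and at 32.3, 25.1 and 37.5 CPM at 10 µM. It had the largest rise of all genes that passed, with no overlap and with the Pb dishes spread over a wide range. The log2 difference was 0.89 ± 0.11 (limma, adjusted p = 1.87e-06), and 0.77 ± 0.12 without replicate 3 (adjusted p = 0.000147). The other 3, the redox protein TXN (0.42 ± 0.090), the peroxiredoxin PRDX1 (0.24 ± 0.059) and PIR, an iron-containing nuclear protein (0.37 ± 0.073), had no overlap between groups. Their adjusted p without replicate 3 was 0.284, 0.383 and 0.0893 (limma). PRDX1 also lost its call with rescaling of the libraries, with edgeR and with a correction for transcript length and GC content. OSGIN1, an oxidative stress-induced growth inhibitor, had a log2 difference of 0.71 ± 0.19 at about 1 to 3 CPM and did not pass (adjusted p = 0.0661).

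Members of the same list with well known responses to metals were among those that did not pass. HMOX1, the heme-degrading oxygenase, was at 0.82, 0.635 and 0.802 CPM at 0 µM and at 0.672, 1.32 and 1.60 CPM at 10 µM, so the groups overlapped. GCLM, the modifier subunit of the glutathione-forming ligase, was at 16.3, 19.8 and 17.7 CPM and at 24.8, 25.6 and 30.1 CPM. The 2 groups of GCLM did not overlap, but its spread within the groups of the fit was wide (log2 difference 0.56 ± 0.29, limma, adjusted p = 0.362). TXNRD1, the thioredoxin reductase, was at 137, 130 and 131 CPM and at 165, 160 and 112 CPM, and here replicate 3 was the only Pb dish below the controls. Its log2 difference of 0.11 ± 0.098 became 0.29 ± 0.093 without that library (limma, adjusted p = 0.631 and 0.358).

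Metallothioneins were expressed at low levels, and 4 of 10 passed the filter of 1 CPM in at least 3 libraries. MT1F was at 2.09, 2.30 and 2.66 CPM without Pb and at 5.18, 4.24 and 5.98 CPM at 10 µM, with no overlap. The log2 difference was 0.87 ± 0.16 (limma, adjusted p = 0.00141), and 0.77 ± 0.17 without replicate 3 (adjusted p = 0.0447). MT2A was at 8.01, 7.62 and 8.02 CPM and at 10.7, 10.7 and 11.9 CPM, again with no overlap, and missed the threshold (0.45 ± 0.12, limma, adjusted p = 0.072). MT1X, at about 1 CPM, had a log2 difference of -0.02 ± 0.15, and MT1E was below 1 CPM in all 6 libraries. Metallothionein genes are near-identical copies, so reads can be split between them and the value of a single member is uncertain. The zinc exporter gene SLC30A1 was at 21.4, 26.0 and 23.7 CPM without Pb and at 39.0, 28.0 and 12.2 CPM with it. Its Pb dishes thus lay on both sides of the controls. None of 22 zinc and divalent metal transporter genes passed. In the heme pathway, whose enzyme ALAD is inhibited by Pb, none of 12 genes passed, and ALAD itself was at 23.3 ± 1.03 CPM and 21.6 ± 1.08 CPM (SD, n = 3).

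Of the 9 falls that also passed without replicate 3, 4 were in transcripts of imprinted loci. H19, a long noncoding RNA expressed from one parental allele (chr11:1995176-2001266 in GRCh38.p14), was at 466, 479 and 444 CPM in the 0 µM dishes and at 273, 270 and 275 CPM at 10 µM. The Pb dishes were nearly equal and far below the controls (log2 difference -0.76 ± 0.12, limma, adjusted p = 0.000247, and -0.77 ± 0.14 with adjusted p = 0.00248 without replicate 3). Its neighbour, the growth factor gene IGF2 (chr11:2129117-2149566), was at 138, 193 and 186 CPM and at 61.6, 81.5 and 69.0 CPM (-1.27 ± 0.24, limma, adjusted p = 0.0031 and 0.0291 without replicate 3). IGF2-AS overlaps IGF2, and since the strand setting of the counting is not given in the sources used here, reads of the pair cannot be told apart. DLK1, a transmembrane relative of the Notch ligands (chr14:100726892-100738224), was at 152, 188 and 205 CPM and at 74.4, 94.4 and 79.1 CPM (-1.12 ± 0.19, limma, adjusted p = 0.00047 and 0.00808). RTL1, a retrotransposon-derived gene of the same imprinted cluster (chr14:100879753-100903722), was at 20, 19.5 and 22.1 CPM and at 8.88, 9.01 and 4.46 CPM. Replicate 3 was the lowest for RTL1, and the difference went from -1.40 ± 0.18 to -1.11 ± 0.18 without it (limma, adjusted p = 1.87e-06 and 0.00037). No group overlapped the other in any of these 4 genes, which was a condition for naming them. They were not on a list, and imprinted genes as a class were not tested.

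The same genes varied between dishes at the lower doses of day 6. H19 was at 418, 253 and 439 CPM in replicates 1, 2 and 3 of 0.16 µM and at 298, 284 and 462 CPM in those of 1.26 µM. IGF2 was at 145, 54.8 and 148 CPM and at 83.3, 76.2 and 193 CPM, and DLK1 at 150, 68.7 and 169 CPM and at 95.5, 79.3 and 172 CPM. RTL1 was at 13.9, 7.41 and 15.7 CPM and at 11.7, 8.66 and 15.7 CPM. In each of the 4 genes, replicate 2 of 0.16 µM and replicates 1 and 2 of 1.26 µM were closer to the 10 µM dishes than the other 3 lower-dose dishes were, and replicate 2 of 0.16 µM was the lowest of the 3 at its dose, below the same gene in the dishes of 1.26 µM. In H19, IGF2 and DLK1 the spread between dishes of 1 lower dose was thus about as wide as the difference between 10 and 0 µM. What set these dishes apart was not tested, and a difference between dishes other than Pb cannot be told apart from Pb at 10 µM, where all 3 dishes were low. HSPA5, CALR, HSP90B1 and MANF did not show this split: HSPA5 was at 306, 311 and 321 CPM at 0.16 µM and at 314, 327 and 286 CPM at 1.26 µM.

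Several other lower genes showed the split in part. EPAS1, which encodes the hypoxia-inducible factor HIF-2 alpha, was at 61.7, 61.7 and 62.8 CPM at 0 µM and at 36.6, 38.8 and 28.5 CPM at 10 µM (-0.84 ± 0.12, limma, adjusted p = 3.04e-05 and 0.0034 without replicate 3). It was at 53.3, 36.2 and 59.2 CPM at 0.16 µM and at 39.3, 42.5 and 55.4 CPM at 1.26 µM, with the low values in the same dishes as those of H19. ARHGAP36 was at 488, 428 and 534 CPM and at 327, 340 and 294 CPM (-0.59 ± 0.11). Its call ended without replicate 3 (limma, adjusted p = 0.00238 and 0.0555), and its lowest value of day 6 was again that of replicate 2 of 0.16 µM, at 256 CPM. SPOCK1, the secreted proteoglycan testican-1, was at 14.2, 15.6 and 19 CPM and at 8.30, 7.86 and 7.07 CPM. All 3 Pb dishes were below every other dish of the day (-0.97 ± 0.12, limma, adjusted p = 1.87e-06 and 0.000147), although replicates 2 of 0.16 and 1.26 µM, at 9.68 and 8.55 CPM, came close. DRD5, a dopamine receptor, was at 1.46, 1.91 and 2.77 CPM and at 0.192, 0.383 and 0.563 CPM. It is named after its values were seen (-1.13 ± 0.22, limma, adjusted p = 0.00491 and 0.0137). Its Pb values are low, beside 0.144, 0.0883 and 0.130 CPM for 3 reads in replicates 1, 2 and 3 of 10 µM.

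Of 18 noradrenergic genes 2 were lower (0.36% of all genes were lower), and 1 without replicate 3 (0.059% of all genes). DBH, the enzyme that forms noradrenaline from dopamine, was at 716, 676 and 713 CPM without Pb and at 519, 571 and 567 CPM with it. The groups did not overlap (log2 difference -0.35 ± 0.065, limma, adjusted p = 0.00253 and 0.011 without replicate 3), and DBH was at 533 and 566 CPM in replicates 2 of 0.16 and 1.26 µM, inside the range of 10 µM. CHGB, a chromogranin of dense-core vesicles, was at 587, 521 and 570 CPM and at 475, 471 and 483 CPM. Its difference of -0.23 ± 0.057 passed only narrowly (limma, adjusted p = 0.0437) and not without replicate 3 (0.246). GATA3, a transcription factor of the noradrenergic state, did not pass, with a log2 difference of -0.12. In bulk RNA, fewer cells of a type and less RNA per cell cannot be told apart.

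Mesenchymal and matrix genes were low in these cells and a few were lower at 10 µM. VIM, the intermediate filament vimentin, was at 49.9, 52.9 and 48.4 CPM without Pb and at 32.7, 33.5 and 42.6 CPM with it. Here replicate 3 was the Pb dish nearest to the controls, and the difference of -0.47 ± 0.093 was -0.59 ± 0.097 without it (limma, adjusted p = 0.00475 and 0.000506). COL3A1, a fibrillar collagen, was at 24.2, 25.1 and 26.1 CPM and at 18.8, 13 and 5.50 CPM. Its lowest value was in replicate 3, and the difference went from -1.10 ± 0.22 to -0.65 ± 0.20 without that library, where it did not pass (limma, adjusted p = 0.00697 and 0.347). In the list of mesenchymal and substrate-adherent markers 2 of 18 were lower, VIM and COL3A1 (0.36% of all genes were lower), and 1 without replicate 3 (0.059%), with medians of -0.14 and -0.15. Among collagens and matrix proteoglycans 2 of 25 were lower, COL3A1 and SPOCK1, and 1 without replicate 3, with medians of -0.20 and -0.11. The sum of the mesenchymal markers, given above, was lower in all Pb dishes than in any control dish, and its part in these differences was not tested.

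Among the other genes that rose were UCHL1 and HTR2B, which are on none of the lists. UCHL1, an abundant neuronal ubiquitin hydrolase, was at 834, 892 and 960 CPM without Pb and at 1058, 1026 and 1253 CPM with it (log2 difference 0.31 ± 0.050, limma, adjusted p = 0.000257 and 0.032 without replicate 3). HTR2B, a serotonin receptor, was at 10.3, 11.9 and 10.5 CPM and at 14.7, 16.5 and 14.8 CPM (0.46 ± 0.086, limma, adjusted p = 0.00238 and 0.011). Neither gene overlapped between the groups, which was a condition for naming them, and HTR2B was as high without replicate 3 (0.49 ± 0.097). Of 22 synaptic vesicle and release genes 1 was higher (0.295% of all genes were higher), SCG2, a precursor of secreted neuropeptides, by 0.23 ± 0.047. Of 20 genes of the neuronal cytoskeleton and growth cone 1 was higher, the microtubule protein MAP1B, by 0.21 ± 0.050. Both calls ended without replicate 3 (limma, adjusted p = 0.284 and 0.361), and the medians of the 2 lists were -0.01 and 0.00.

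In other lists few or no genes passed. MCM7, a subunit of the replicative helicase, was lower (-0.19 ± 0.049, limma, adjusted p = 0.0494 and 0.246 without replicate 3), and it was the 1 gene of 30 in the replication and cell cycle list. In that list 8 of 30 members were above 0 with all libraries and 4 without replicate 3, with medians of -0.08 and -0.07. The glycolytic enzyme PFKP was lower (-0.21 ± 0.052), the 1 of 29 in the glycolysis and hypoxia list, and its call ended without replicate 3 (limma, adjusted p = 0.246). The calls of CHGB, MCM7 and PFKP also ended with rescaling of the libraries and with edgeR. None of 27 p53 targets passed: GDF15, a secreted stress cytokine, was at 89.9 ± 1.57 CPM and 97.5 ± 14.6 CPM, and the cell cycle inhibitor CDKN1A at 88.9 ± 6.39 CPM and 90.3 ± 10.9 CPM (SD, n = 3). None passed among 25 immediate early and cAMP response genes, 28 calcium pumps, stores and sensors, 29 cholesterol and fatty acid synthesis genes, 15 glutamate receptor genes, 13 iron genes, 13 mitochondrially encoded transcripts and 31 proteasome genes. EGR1, an immediate early transcription factor, was at 92.9, 109 and 102 CPM and at 125, 130 and 131 CPM with no overlap, and did not pass (0.34 ± 0.18, limma, adjusted p = 0.364). The remaining lists, of nuclear-retained and histone transcripts, Schwann and glial markers, and epithelial, blood and liver markers, held no gene that passed. Of 14 peroxidase, peroxiredoxin and superoxide dismutase genes PRDX1, named above, was the 1 that was higher.

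**Figure D2:**
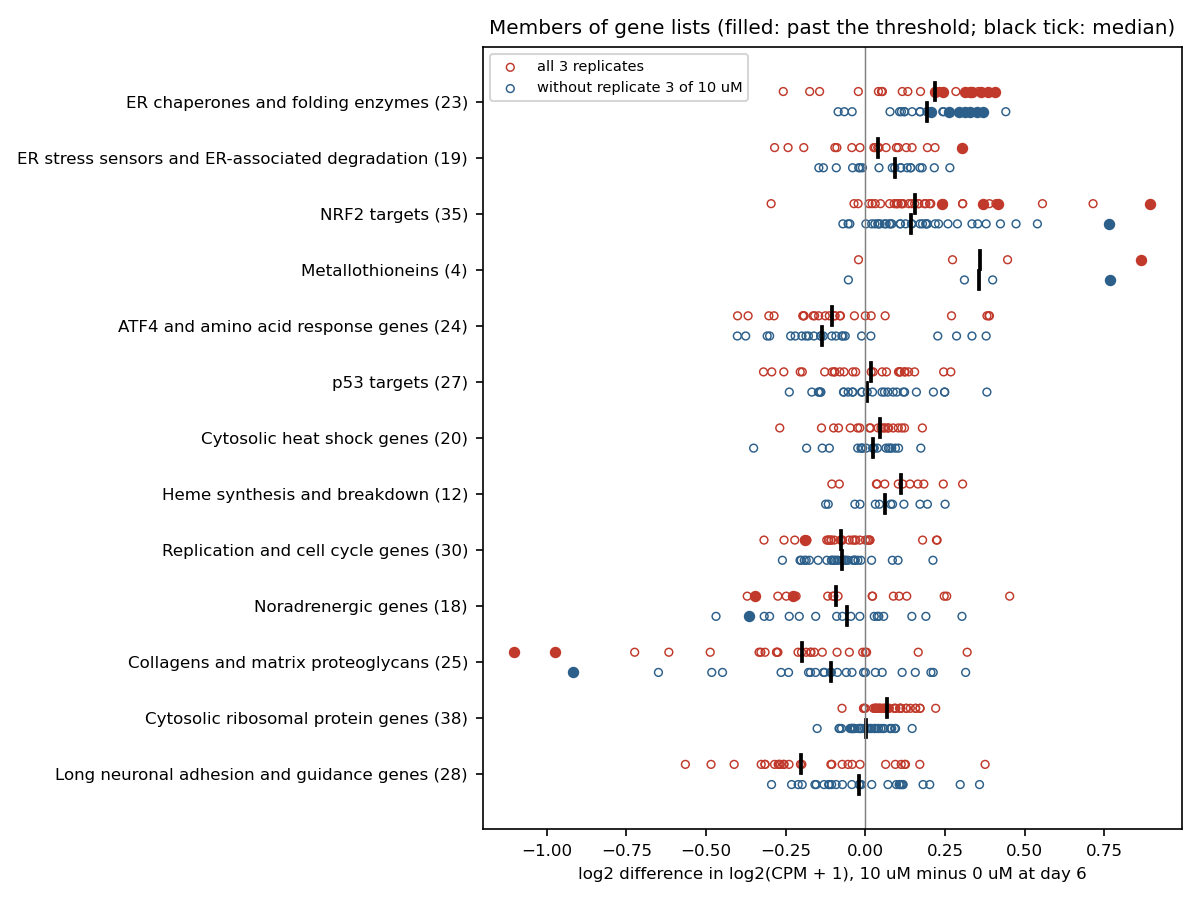
Log2 difference between 10 and 0 µM at day 6 (x axis) of the members of 13 gene lists (rows, with the number of measured members), with all libraries in red and without replicate 3 of 10 µM in blue, filled where the gene passed, and a black tick at the median. The ER chaperones keep a median near 0.2 in both rows, whereas the median of the long adhesion and guidance genes moves from -0.20 to -0.02.

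Of the 100 calls, 80 ended without replicate 3 of 10 µM, the library whose values fall with transcript length. The median transcript length was 1971 bases for the higher genes and 4623 bases for the lower genes, beside 3331 bases over all genes with a reference transcript. Of the 45 rises 43, and of the 55 falls 46, were larger with replicate 3 than without it. All 100 kept their sign without it. The 28 long neuronal adhesion and guidance genes, with a median length of 7081.5 bases, had a median log2 difference of -0.20 with replicate 3 and -0.02 without it. The 38 ribosomal protein genes, at 1270.5 bases, had one of 0.07 and 0.00, with 34 and 19 members above 0. The 11 nuclear-retained and histone transcripts had one of 0.08 and 0.03. Only 3 of the 11 had a matched length, with a median of 22743 bases, so the list as a whole has no known length. No member of these 3 lists passed. The 9 lower genes that also passed without replicate 3 still had a median length of 4722 bases and the 11 higher ones of 2398 bases. Genes with a small p whose call ended without the library include IKBKB, a kinase that activates NF-kappa-B, at 6.33, 6.38 and 5.47 CPM without Pb and 3.17, 3.94 and 2.21 CPM with it. They also include ZC3H7B, a zinc finger protein gene, at 59.5, 50.2 and 51.3 CPM and 43.1, 43.1 and 26.2 CPM. In IKBKB all 3 Pb dishes were low (-0.80 ± 0.15, and -0.63 ± 0.16 without replicate 3), whereas in ZC3H7B replicate 3 lay far below the other 2 Pb dishes (-0.54 ± 0.11, and -0.30 ± 0.094). The genes nearest to the threshold were SH3PXD2A, MCM7 and PDZRN3 just inside (adjusted p = 0.0494 each by limma) and SYTL4, GRM8 and YIPF6 just outside (adjusted p = 0.0518 each).

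**Figure D3:**
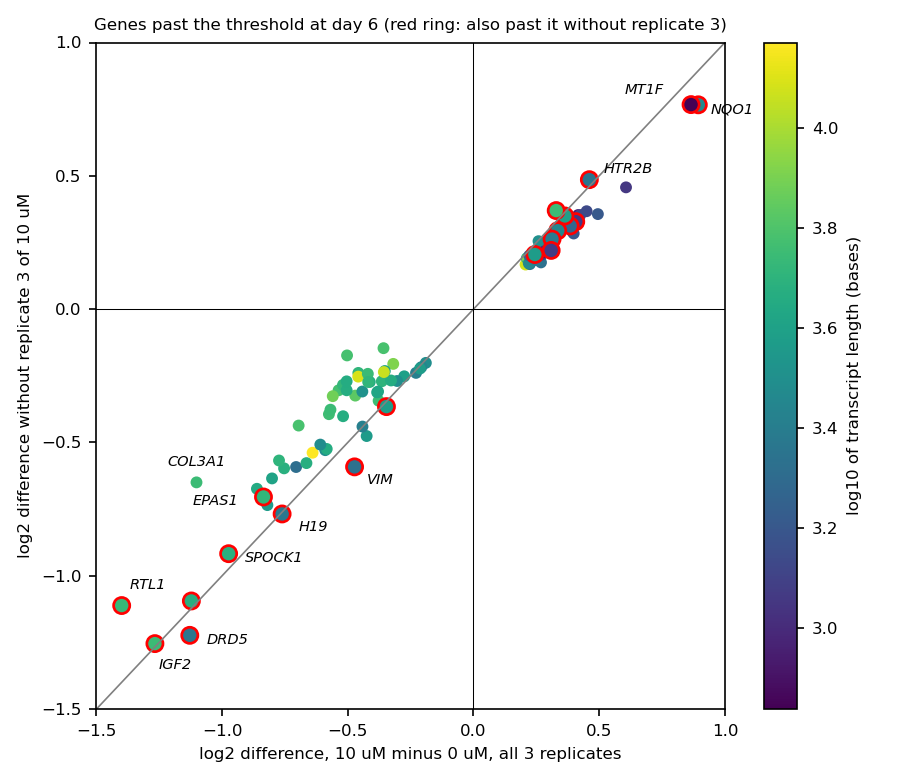
Log2 difference between 10 and 0 µM of the 100 genes that passed at day 6, with all libraries (x axis) and without replicate 3 of 10 µM (y axis), coloured by log10 of transcript length in bases and grey where no reference transcript was matched. Red rings mark the 20 genes that passed both ways, and the grey line marks equal values. Most points below 0 lie above the line, so their falls were smaller without replicate 3.

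Across the doses of day 6, 67 of 15263 genes had a slope over the dose steps 0 to 3 that passed (0.439%), 28 higher (0.183%) and 39 lower (0.256%) with dose, and 15 without replicate 3 of 10 µM (0.0983%). The slope shares its 0 and 10 µM libraries with the comparison above and is no separate support for it. NQO1 rose in steps, from 16.4 ± 1.38 CPM without Pb to 17.9, 22.9 and 17.8 CPM at 0.16 µM and 18.4, 24.3 and 25.2 CPM at 1.26 µM (slope 0.29 log2 units per step, limma, adjusted p = 1.26e-06, and 0.000167 without replicate 3). MT1F was at 2.92, 3.11 and 2.88 CPM at 0.16 µM and at 4.09, 3.75 and 5.78 CPM at 1.26 µM (0.31 per step, adjusted p = 0.000228 and 0.00707). Every dish of 1.26 µM thus exceeded every control dish in both genes. MT2A passed in the slope (0.17 per step, adjusted p = 0.022) and not without replicate 3 (0.217). HSPA5 did not rise in steps, since its values at the lower doses lay around the controls, although its slope passed (0.11 per step, adjusted p = 1.14e-05). CALR, MANF and HSP90B1 differed from HSPA5 in this. CALR exceeded every control dish at 0.16 µM (705 to 740 CPM) and at 1.26 µM (720 to 769 CPM). MANF did so at 1.26 µM (81.0, 85.6 and 91.3 CPM) but not in every dish of 0.16 µM. HSP90B1 did so at 0.16 µM (418, 422 and 410 CPM) but not in every dish of 1.26 µM. At 0.16 and at 1.26 µM, compared with the same control dishes, no gene passed by limma (0.0%), with 937 and 1254 genes at an unadjusted p under 0.05, and edgeR called 3 and 0.

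The later days, each with its own 0 µM dishes, show which first-day differences were there after longer exposure. Of the 100 genes of day 6, 10 were also called in the same direction at day 9, which is 10% of the day 6 genes and 4.65% of the 215 genes of day 9 (1.41% of all genes). At day 12 the number was 17 (17% and 2.08% of 819, themselves 5.37% of all genes), at day 15 it was 19 (19% and 2.19% of 867, 5.68% of all) and at day 18 it was 35 (35% and 0.792% of 4418, 28.9% of all). In the opposite direction there were 0, 0, 3 and 12. Of the 20 genes that passed at day 6 without replicate 3, 4, 4, 9 and 11 were called in the same direction at days 9, 12, 15 and 18. NQO1 was the only gene called at all 5 days, with log2 differences of 0.76, 0.51, 0.52 and 0.99 at days 9, 12, 15 and 18. The library names of day 18 carry another prefix than those of the other days, and Pb was compared with 0 µM within each day. Its replicate 1 of 0 µM had a length slope of -0.520, close to that of replicate 3 of 10 µM at day 6, and the part of that library in the day 18 values was not tested.

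The ER chaperones that rose at day 6 did not pass at day 9. Of the 23 members 0 passed at day 9 (0.446% of all genes were higher there), 2 at day 12 (3.03%), 12 at day 15 (2.5%) and 20 at day 18 (12.1%), with medians of 0.01, 0.00, 0.24 and 0.89. HSPA5 was at 325 ± 6.48 CPM without Pb and 301 ± 10.1 CPM with 10 µM at day 9 (SD, n = 3), a log2 difference of -0.11. Its difference at day 6 exceeded that at day 9 by 0.47 ± 0.066 (limma, adjusted p = 1.02e-05, and 6.96e-05 without replicate 3). The same test passed for CALR (0.43 ± 0.068) and HSP90B1 (0.41 ± 0.067) with and without replicate 3. It passed for DNAJB11 (0.34 ± 0.078) and PDIA4 (0.28 ± 0.065) only with that library. Over all genes, 63 differed between the effects of the 2 days (0.413%), 50 of them with the day 6 effect higher, and 56 without replicate 3 (0.367%).

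None of the lower imprinted transcripts of day 6 passed as lower at a later day. H19 had log2 differences of 0.02, 0.09, 0.20 and 0.37 at days 9, 12, 15 and 18, of which the last passed (limma, adjusted p = 0.0198). IGF2 had log2 differences of -0.13, -0.06, 0.32 and 0.53 at these days. DLK1 and RTL1 were at -0.23 and -0.53 at day 9 and between -0.13 and 0.19 after that, and of these 3 genes none passed at a later day. Against the mean of the 4 later days, the day 6 difference was -0.93 in H19, -1.43 in IGF2, -1.17 in DLK1, -1.28 in RTL1 and -1.05 in SPOCK1, and all 5 passed with and without replicate 3. Of these 5, H19 (-0.78 ± 0.17) and SPOCK1 (-0.88 ± 0.18) also passed the test of day 6 against day 9, while RTL1, IGF2 and DLK1 did not. In all, 712 genes differed between day 6 and the later mean (4.66%), and 161 without replicate 3 of 10 µM (1.05%). VIM and COL3A1 were lower at day 9 by larger log2 differences, -1.26 and -2.17, and COL3A1 at day 12 by -3.88. The difference between days 6 and 9 passed for VIM (0.79 ± 0.13, limma, adjusted p = 0.000283). For COL3A1 it passed only without replicate 3 (1.07 ± 0.32, adjusted p = 0.156, and 0.00127 without replicate 3).

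GDF15 and CDKN1A did not pass after 1 day and were higher at every later day. GDF15 had log2 differences of 1.05, 1.05, 1.13 and 2.21 at days 9, 12, 15 and 18, and CDKN1A of 0.59, 0.74, 0.51 and 0.62. The difference between day 6 and day 9 passed for GDF15 (-0.95 ± 0.15, limma, adjusted p = 0.000109) and for CDKN1A (-0.57 ± 0.11, adjusted p = 0.00395). Both held without replicate 3, at adjusted p values of 1.99e-05 and 0.000784. Among the 27 p53 targets the number of higher genes was 0 at day 6 (0.295% of all genes were higher), 5 at day 9 (0.446%), 12 at day 12 (3.03%), 7 at day 15 (2.5%) and 11 at day 18 (12.1%). The medians of the list at these days were 0.02, 0.25, 0.29, 0.18 and 0.13.

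**Figure D4:**
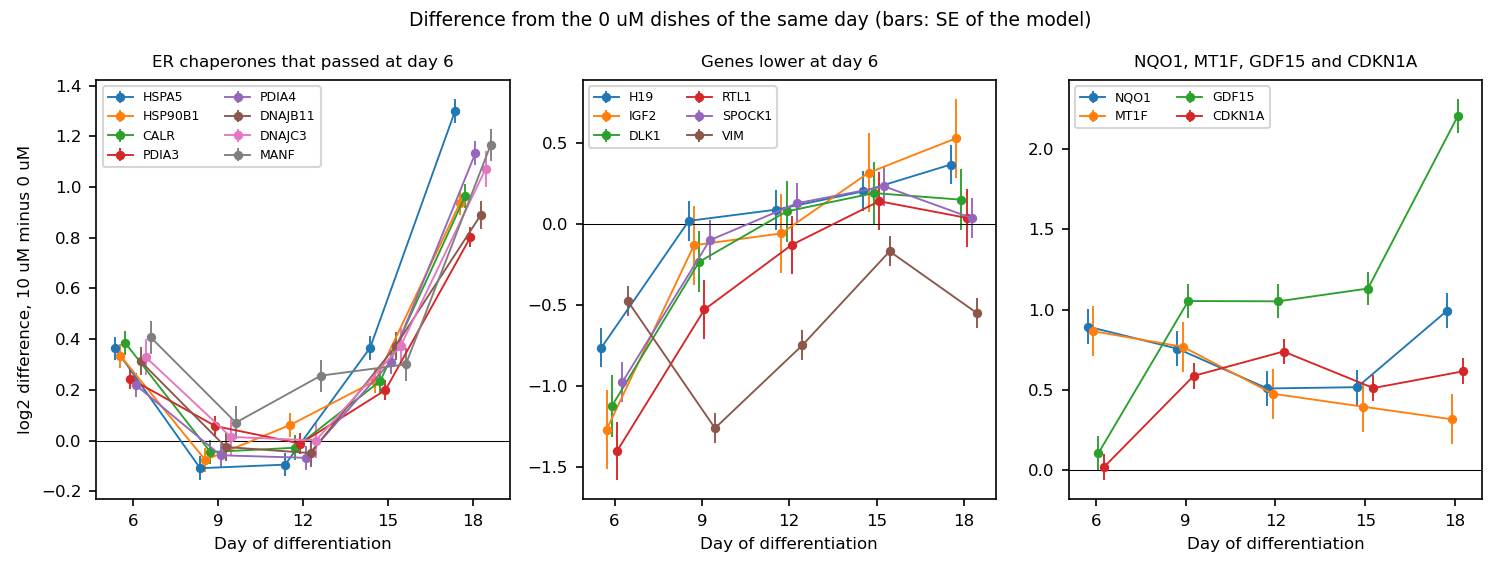
Log2 difference between 10 and 0 µM (y axis) at 5 days of differentiation (x axis), with bars for the SE of the model and points shifted sideways for clarity. The 8 ER chaperones lie between 0.22 and 0.41 at day 6, between -0.11 and 0.07 at day 9 and between 0.80 and 1.3 at day 18, H19, IGF2, DLK1, RTL1 and SPOCK1 are low at day 6, and GDF15 and CDKN1A are at 0.11 and 0.02 at day 6 and higher from day 9 on.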

How the data were processed

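RNA of SH-SY5Y cells was sequenced from PlexWell libraries, 1 per dish. Per the labels and the submitters' processing notes, the authors used STAR, featureCounts, FastQC and MultiQC with the human build GRCh38. Versions, annotation and strand setting are not given in the sources used here. The deposited table holds CPM values for 37334 genes in 60 libraries, read counts that the authors scaled to the same total in every library. Whole reads could be recovered from the deposited CPM: 100% of values came out whole within 0.01 read.

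Genes at 1 CPM or more in at least 3 libraries were kept (15263). log2(CPM + 1) was fitted in limma (version 3.58.1, under R 4.3.3) with a trend on mean expression, 1 mean for each of 20 groups and 40 residual degrees of freedom. Tests were two-sided, with Benjamini-Hochberg adjustment and a threshold of 0.05. Fold changes are on the log2(CPM + 1) scale and understate the change of low genes. Errors of log2 differences are standard errors, and those of CPM are SD of 3 dishes. Simulated counts for the day 6 comparison (15263 genes, 50 changed at each fold) gave 13 of 50 calls at 1.25-fold, 42 at 1.5-fold, 49 at 2-fold and 50 at 3-fold, with 9 false calls. The simulated libraries varied gene by gene only, and none deviated as a whole as replicate 3 of 10 µM did. The simulated numbers of recovered and false calls therefore do not carry over to the real comparison. Depth was 16594259 to 50539599 reads over all 60 libraries, and a count of 0 in a library allows up to 3 reads, for counting error only. Replicates within a group differed by more than sampling noise: the chi-square per degree of freedom was 5.45 to 9.25 between the 0 µM libraries and 8.67 to 42.3 between the 10 µM libraries.

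The edgeR 4.0.16 quasi-likelihood test was run on the recovered reads as an alternative. It called 89 genes. Other alternatives were the pseudocount, the filter, rescaling, the libraries in the fit, a replicate block, array weights, a correction for GC content and transcript length, and leaving out each library. Transcript length and GC content came from GENCODE transcripts matched by symbol or older symbol, which gave a length for 14145 of the genes kept. The longest protein-coding transcript of a gene was used, or else its longest transcript. Gene positions and promoters were matched by symbol to RefSeq (GRCh38.p14).

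The comparison and the gene lists were chosen with earlier results of these data known. Named genes were up to 10 rises and 10 falls at 5 CPM or more whose groups did not overlap and that also passed without replicate 3 of 10 µM, the 5 smallest p-values among those whose call ended without it, up to 4 members of each list and a fixed set of Pb, stress and cell type genes. Genes named outside this rule are given as such. Values of some named genes are not reported here.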

Additional observations from a re-analysis of the deposited data

Results flagged for a closer look

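The effect of 10 µM Pb at day 6 differed from that at day 9, by limma's test of the difference, in 10 of the named genes. On the log2 scale, day 6 minus day 9, the difference was 0.47 in HSPA5, 0.43 in CALR, 0.41 in HSP90B1 and 0.34 in DNAJB11, the ER chaperones that rose after 1 day. It was 0.79 in VIM, whose fall was smaller at day 6, and -0.88 in SPOCK1 and -0.78 in H19, which were lower at day 6. It was -0.95 in GDF15, -0.57 in CDKN1A and -0.34 in the secreted glutathione peroxidase gene GPX3, none of which passed at day 6. Of the 10, 9 also passed without replicate 3 of 10 µM, the exception being DNAJB11, and all 10 kept their sign.

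Against the mean effect of the 4 later days, 30 of the genes reported differed at day 6. Of these, 14 also passed without replicate 3 of 10 µM, and all 30 kept their sign. Among the 14 were genes lower at day 6, with differences of -1.28 in RTL1, -1.43 in IGF2, -1.17 in DLK1, -1.05 in SPOCK1 and -0.93 in H19. The same 14 held genes of the p53 and stress lists, with -1.25 in GDF15, -0.59 in CDKN1A, -0.82 in the death receptor gene FAS, -0.35 in the kinase gene PLK2 and -0.43 in the stress-induced factor ATF3. The difference was -0.99 in the glycolytic regulator PFKFB3, 0.98 in COL3A1 and 0.25 in MCM7, which had also been lower at day 6, and 0.39 in the ribosomal protein gene RPS3.

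The other 16 passed only with replicate 3 in the fit. Among these the difference was 0.19 in UCHL1, -0.26 in DBH, -0.76 in IKBKB and -0.54 in ZC3H7B, which had passed at day 6. It was -0.46 in the sterol synthesis gene HMGCS1, -0.50 in the amino acid transporter gene SLC7A1, 0.24 in the mitochondrial peroxiredoxin gene PRDX3 and -0.49 in the p53 regulator MDM2. It was -0.44 in the signalling inhibitor SPRY4. Among neuronal genes it was -0.65 in DPYSL3, -0.66 in CPLX2 and -0.53 in L1CAM. The ribosomal protein genes RPL23, RPL30 and RPL11 had 0.43, 0.43 and 0.32, and the histone gene H2BC5 had 0.51. Of all 30, 19 were not past the threshold at day 6 itself.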

How the results depend on the processing

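The 100 genes of the day 6 comparison were 1 in a fit of the 6 libraries alone, 0 in a fit of the 12 libraries of day 6 (1335 at an unadjusted p under 0.05) and 217 with array weights, which gave the 10 µM replicates weights of 0.533, 2.6 and 0.14. Leaving out 1 library gave 20 (without replicate 3 of 10 µM) to 1061 (without its replicate 1). The 67 genes of the dose slope were 0 in a fit of day 6 alone (1473 unadjusted), 212 with array weights and 102 with the correction for GC content and length. Leaving out 1 library gave 15 (replicate 3 of 10 µM) to 1134 (its replicate 1), with 347 without replicate 2 of 10 µM and 33 without replicate 1 of 0 µM. The 63 genes that differed between days 6 and 9 were 12 in a fit of the groups compared and 174 with array weights, and 56 to 161 with 1 library of day 6 left out, the highest without replicate 1 of 10 µM. The 712 genes against the later mean were 431 without a filter, 218 in a fit of the groups compared and 191 without both libraries with the steepest length slope, replicate 3 of 10 µM at day 6 and replicate 1 of 0 µM at day 18. Leaving out 1 library of day 6 gave 161 (replicate 3 of 10 µM) to 2037 (its replicate 1), with 166 and 363 without replicates 1 and 2 of 0 µM and 1298 without replicate 2 of 10 µM. Fits of fewer groups have fewer residual degrees of freedom. The cause of the other changes was not tested.

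The share of higher genes moved by over 10 percentage points with edgeR for the slope (54.5% against 41.8%) and for the later mean (57.7% against 43.5%), and without a filter for the day 6 comparison (60% against 45.0%). Without replicate 1 of 10 µM it was 17.1% for the day 6 comparison, 16.3% for the slope, 42.9% against 79.4% for day 6 minus day 9 and 25.8% for the later mean, and without replicate 2 of 10 µM 32.4% for the day 6 comparison, 28.0% for the slope and 33.4% for the later mean. For day 6 minus day 9 it was 58.6% with array weights and 68.5% with the correction for GC content and length. For the later mean it was 59.6% in the fit of the groups compared and 54.8% without replicate 1 of 0 µM. Over all genes, same-numbered dishes of 0 and 10 µM at day 6 did not deviate together (correlations of 0.034 to 0.039), and the main fit did not pair them. Dishes of the lower doses were not examined in this way, so handling shared by a number was not tested there. With a replicate block within each day the 4 counts were 78, 79, 66 and 763, within 1.5 times of those without it. No named gene that passed with all libraries changed its direction under an alternative. Genes that passed only under an alternative were less stable. SLC39A14 passed as lower without replicate 1 of 10 µM (limma, adjusted p = 0.0278). Its replicates 1 and 2 of 10 µM, at 63.6 and 56.4 CPM, lay on both sides of the controls, at 57.7 to 58.5 CPM. The direction of most calls in a count also changed in some alternatives, as the shares above show. Named genes that did not pass, such as MT1X, and medians of lists near 0 did change sign. The fit of 12 libraries and the fit without the 2 libraries together were chosen after seeing the data, as was the gene-by-gene method of the planned array weights, since the planned fit did not converge. Depth, at 20841741 to 33972019 reads in the 6 libraries, limits the genes near 1 CPM, such as DRD5, HMOX1 and MT1E.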
